A study of Mus musculus with 9 samples.

Results

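Neurofilaments are the main intermediate filaments of large axons. The light chain (Nefl) forms the filament core, and the medium (Nefm) and heavy (Nefh) chains join it and carry long, phosphorylated tails that project from the filament and bear on axon calibre. Peripherin (Prph) is a related filament protein of neurons that send axons into the periphery, motor neurons among them, and can assemble with the neurofilament chains.

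The transcripts of these 4 genes were measured on 9 Affymetrix arrays of laser-captured lumbar spinal motor neurons, from 3 wild-type mice given vehicle, 3 transgenic mice with spinal muscular atrophy (SMA) given vehicle, and 3 SMA mice that received neural stem cells. Surgery was on postnatal day 1 and tissue was taken at day 13 after fixation by perfusion. About 100 cells were collected on each cap from sections of 16 µm, and each array held 1 animal, so that the p-values below measure the spread between animals. The alleles of the SMA mice, and whether captured cells of transplanted animals came from host or graft, could not be read from the labels. All probe sets that the platform annotation assigns to Nefl, Nefm, Nefh or Prph alone were taken, whatever their values: 7 of 22626 probe sets. Nefl, Nefm and Nefh have 1 probe set each and Prph has 4. In the RefSeq table for the mouse assembly GRCm38.p6, Nefl and Nefm are neighbours on chromosome 14, with no protein-coding gene between them, while Nefh lies on chromosome 11 and Prph on chromosome 15.

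Values are MAS5 signals, a scaled brightness in arbitrary units. They compare 1 probe set across arrays and do not rank different genes. Total signal ran from 3226815 to 3453157 per array, and the mean correlation of an array with its own group ran from 0.949 to 0.974. The summed signal of general neuronal markers ran from 1435 to 1904 in wild type, 1177 to 2620 in SMA and 1160 to 2809 in transplanted SMA. The summed signal of motor neuron markers was 332 to 383, 350 to 432 and 417 to 620 in the same order, with 18 of 23 markers represented, 5 of them bright enough to test, and none at 0. The 5 were Isl2, Ache, Mmp9, Gfra2 and Esrrg. Slc18a3, Slc5a7, Isl1 and Mnx1 were dim, with mean signals of 13.4, 7.9, 8.83 and 9.38, where the tested probe sets began near 33.5. A signal above 0 does not show detection, and these sums do not measure motor neuron content. Chat, the acetylcholine-synthesising enzyme that defines motor neurons, had no probe set of its own here. Markers of glia gave signal in every capture, with oligodendrocyte sums from 17981 to 33712. These sums do not measure the share of glial RNA. Skeletal muscle markers summed to 2189 on SMA animal 1 and 2709 on SMA animal 2, against 45.7 to 111 on the other 7 arrays.

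Nefl, the core chain, gave signals of 980.8, 965.6 and 856.6 in the wild-type animals. SMA animals gave 962.9, 559.1 and 572.9, and transplanted ones 752.9, 1458 and 731.2. Its wild-type values were tightly grouped, whereas SMA animal 1 lay within the wild-type range and the other 2 SMA animals lay well below it. Group means were 934 ± 67.7, 698 ± 229 and 981 ± 413 (SD, n = 3 each).

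Nefm, the medium chain, gave 188.3, 200.1 and 156.3 in the wild-type animals. The SMA signals were 168.1, 146.2 and 91.4, and after transplantation they were 165.2, 602.8 and 151.8. The SMA and wild-type values overlapped at SMA animal 1. Transplanted animals 1 and 3 lay within or just under the wild-type range, and transplanted animal 2 stood far above all other animals. Group means were 182 ± 22.7, 135 ± 39.5 and 307 ± 257 (SD, n = 3 each).

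Nefh, the heavy chain, gave 77.2, 97.9 and 156.2 in the wild-type animals. The SMA signals were 73, 54.1 and 87.1, and the transplanted animals gave 91.2, 348.2 and 120.4. Every transplanted animal was above every SMA animal, although the closest pair, 91.2 against 87.1, differed little. Wild-type values spread widely and overlapped both other groups. Group means were 110 ± 41, 71.4 ± 16.6 and 187 ± 141 (SD, n = 3 each).

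**Figure D1:**
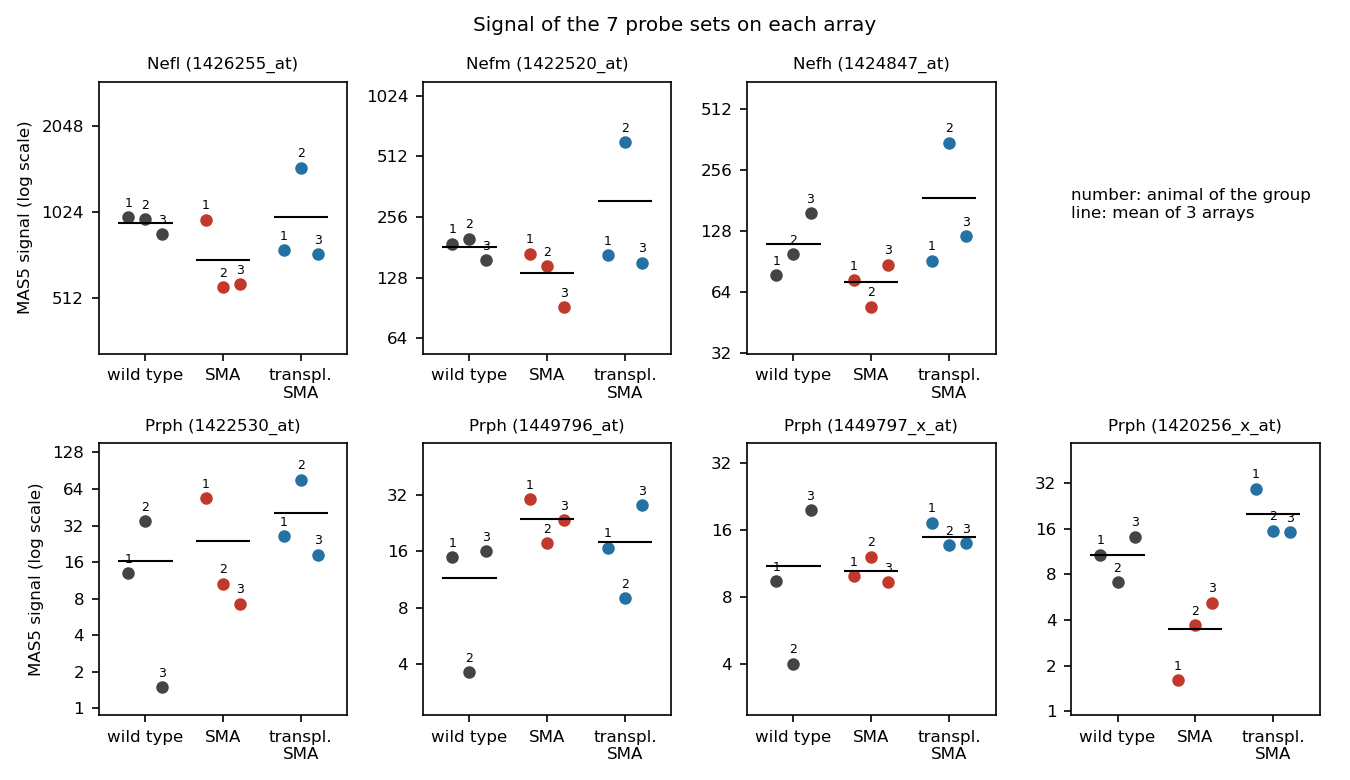
MAS5 signal (log axis, arbitrary units) of the 7 probe sets of Nefl, Nefm, Nefh and Prph in the 3 groups, with each animal numbered and the group mean as a line. Transplanted SMA animal 2 is the highest array for Nefl, Nefm and Nefh, at 1458, 602.8 and 348.2.

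Peripherin was dim on all its probe sets, and none of the 4 reached the brighter 50% of probe sets kept for testing. The brightest, 1422530_at, gave 13, 34.7 and 1.5 in the wild-type animals, 54, 10.6 and 7.3 with SMA, and 26.3, 76.6 and 18.4 after transplantation, with overlap between groups. The others disagreed with it and with each other. Probe set 1449796_at gave 14.9, 3.6 and 16 for wild type against 30.6, 17.7 and 23.5 for SMA, so that all SMA animals were higher. Probe set 1420256_x_at gave 10.8, 7.1 and 14.2 for wild type against 1.6, 3.7 and 5.2 for SMA, so that all SMA animals were lower. Its suffix marks probes shared with other transcripts, as does that of 1449797_x_at. A direction for Prph therefore could not be read from these arrays.

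SMA was first compared with wild type by limma on log2(signal + 16), with Benjamini-Hochberg adjustment over 11313 probe sets. A fold on this scale understates the change of dim probe sets. The estimates of the 3 chains were alike in size and below 0, and none passed an adjusted p of 0.05. Nefl differed by -0.45 (SE 0.28, 95% interval -1.08 to 0.17, limma adjusted p = 0.908), Nefm by -0.42 (SE 0.42, -1.35 to 0.52, limma adjusted p = 1) and Nefh by -0.50 (SE 0.40, -1.39 to 0.38, limma adjusted p = 0.97). Of the 3 chains, 0 were called by limma and 0 had an unadjusted p under 0.05, where 0.0442% of all tested probe sets were called and 6.04% had such an unadjusted p. A smaller share of motor neurons in a capture and less RNA per motor neuron cannot be told apart in these pooled cells. Leaving out SMA animals 1 and 2, whose captures held muscle transcripts, leaves 1 SMA animal, which is then assumed to vary like the other groups. The estimates were -0.69 for Nefl, -0.87 for Nefm and -0.25 for Nefh, so that 2 moved away from 0 and the other toward it, and none passed.

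Transplanted SMA was then compared with SMA. All 3 estimates were above 0 and none passed. Nefl differed by 0.45 (SE 0.28, interval -0.17 to 1.07), Nefm by 0.85 (SE 0.42, -0.08 to 1.79) and Nefh by 1.02 (SE 0.40, 0.13 to 1.90), each with a limma adjusted p of 0.933. Of the 3 chains, 0 were called, as were 0% of all probe sets, and only Nefh of the 3 had an unadjusted p under 0.05, against 4.77% of all tested probe sets. Transplanted animal 2 carried much of each estimate: without it Nefl differed by 0.13 (interval -0.41 to 0.68), Nefm by 0.24 (-0.32 to 0.80) and Nefh by 0.49 (-0.15 to 1.12).

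Against wild type, the transplanted animals differed by 0.00 for Nefl (interval -0.62 to 0.62), 0.44 for Nefm (-0.50 to 1.37) and 0.51 for Nefh (-0.37 to 1.40), with 0 chains called by limma, 0 at an unadjusted p under 0.05 (6.55% of all tested probe sets) and 0% of all probe sets called. Without transplanted animal 2 the Nefm and Nefh estimates were -0.17 and -0.02, on the other side of 0. The intervals leave room for a change of either sign, and so do not show that transplanted and wild-type animals were alike.

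**Figure D2:**
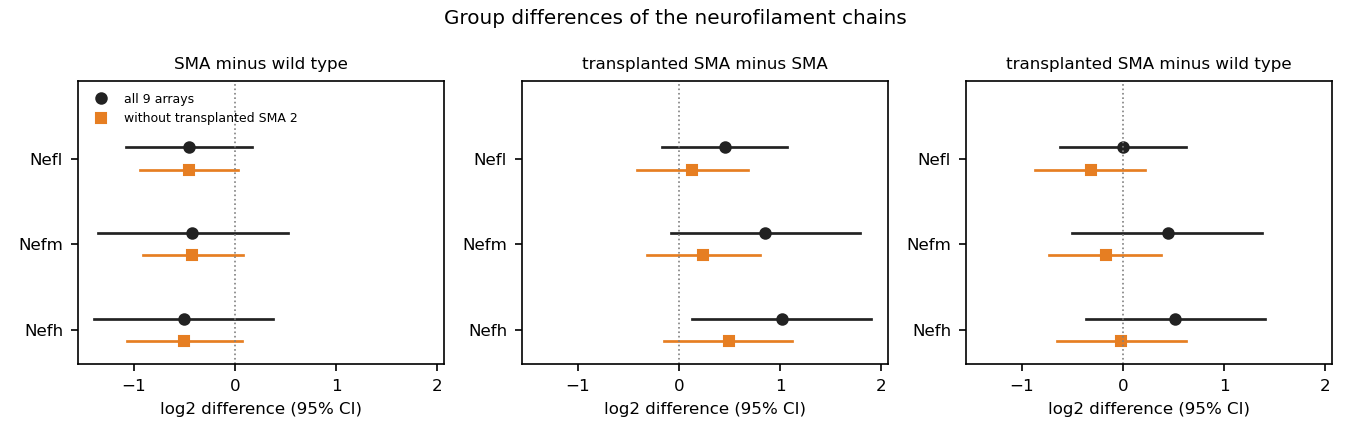
Differences of Nefl, Nefm and Nefh on the log2(signal + 16) scale in the 3 comparisons, with 95% intervals, from all 9 arrays and without transplanted SMA animal 2. Leaving that animal out moved Nefm from 0.85 to 0.24 and Nefh from 1.02 to 0.49 for transplanted SMA against SMA.

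Counting animals rather than means, 1 of the 7 probe sets was higher in all SMA than in all wild-type animals and 1 was lower, both of Prph, where 7.22% and 2.63% of the dim probe sets did so. In transplanted SMA against SMA, 3 were higher in every animal. These were Nefh, where 4.43% of tested probe sets did so, and Prph 1420256_x_at and 1449797_x_at, where 6.29% of the dim ones did. In transplanted SMA against wild type, Prph 1420256_x_at alone was higher in every animal, against 10.3% of the dim probe sets.

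The signal of neuronal markers varied between captures. Each chain was therefore also taken relative to the mean log2 value of 8 neuronal genes on the same array (Tubb3, Snap25, Stmn2, Uchl1, Eno2, Map2, Thy1 and Gap43). Relative Nefl was 2.27, 2.35 and 2.49 for wild type, 1.88, 1.55 and 2.08 for SMA, and 2.07, 2.31 and 2.47 for the transplanted animals. Relative Nefm was -0.02, 0.17 and 0.15, then -0.53, -0.28 and -0.37, then -0.02, 1.06 and 0.31. On this measure all 3 SMA animals lay below all 3 wild-type animals for both chains, by 0.53 for Nefl and 0.49 for Nefm on average. The two-sided exact permutation p was 0.1 for each, the smallest that 3 against 3 allows, and the adjusted p over 18 such tests was at least 0.45. Of all tested probe sets, 3.13% were lower without overlap in the same way. Without the subtraction 6.06% were, and Nefl and Nefm overlapped. SMA animal 1 lay within the wild-type range for both signals, so its lower place on this measure came from the subtraction. Its neuronal mean was 8.05, against 7.28 to 7.69 in wild type. On that animal Tubb3, Stmn2, Uchl1, Map2, Gap43 and, barely, Eno2 were above the wild-type range, Thy1 was within it and Snap25 below it.

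Relative Nefm was also higher in every transplanted than in every SMA animal, by 0.84 (exact permutation p = 0.1), and by 0.54 without transplanted animal 2. On this measure 0.159% of tested probe sets were higher without overlap. The measure itself lowers that share, because a gene that does not follow the neuronal mean takes on its spread. That mean ran from 7.12 to 8.05 in SMA and from 7.08 to 8.22 in transplanted animals. Without the subtraction 4.43% of tested probe sets were higher without overlap, and Nefm overlapped. Relative Nefl differed by 0.44 (exact p = 0.2) and relative Nefh by 1.01 (exact p = 0.2), both with overlap. With the neuronal mean as a covariate in limma, Nefm differed by 0.84 (SE 0.23, limma adjusted p = 0.741) between transplanted SMA and SMA.

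**Figure D3:**
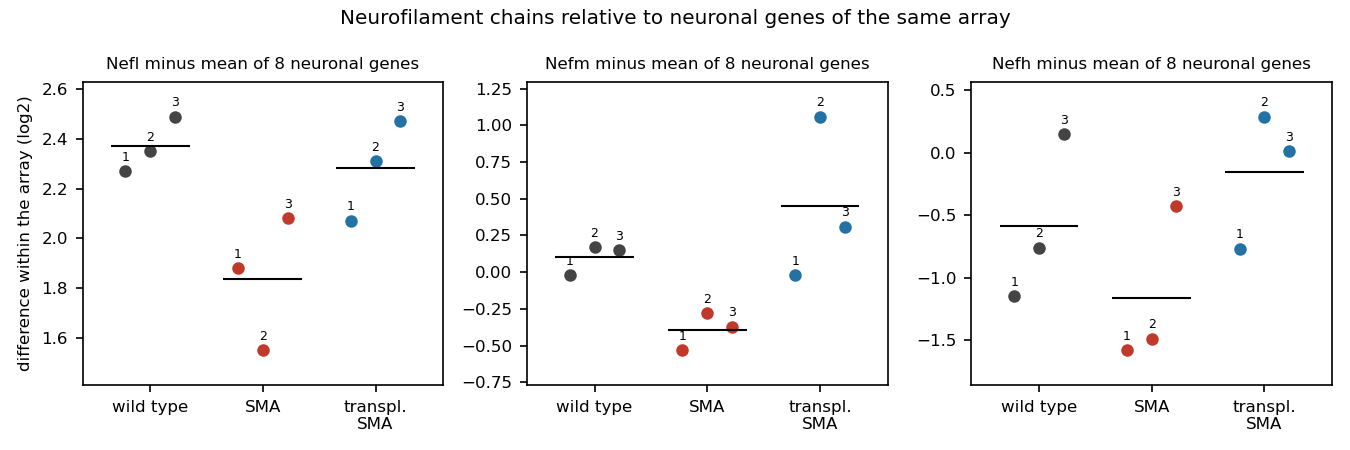
Log2(signal + 16) of each chain minus the mean of 8 neuronal genes on the same array, by group, with each animal as a point. For Nefl and Nefm the 3 SMA animals lie below the 3 wild-type animals, while Nefh overlaps.

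The chains were next compared with each other within an array, as differences on the log2 scale. Nefm minus Nefl differed by 0.04 between SMA and wild type (exact permutation p = 1). It was higher in every transplanted than every wild-type animal, by 0.44 (exact permutation p = 0.1, adjusted over 18 tests 0.45), and by 0.15 without transplanted animal 2. The closest pair, -2.15 on transplanted animal 3 and -2.18 on wild-type animal 2, barely differed. Nefh minus Nefm was -1.13, -0.92 and 0.00 for wild type, -1.05, -1.21 and -0.06 for SMA and -0.76, -0.76 and -0.30 for the transplanted animals. The 2 animals nearest 0, wild type 3 and SMA 3, also had the highest ratios of 3′ to 5′ actin probe signal, 3.66 and 4.32 against 2.48 to 3.11 elsewhere. The same ratio for Gapdh ordered the arrays otherwise, at 3.63 and 3.92 on these animals. It was highest on SMA animal 1, at 4.26, where Nefh minus Nefm was -1.05, and was 3.82 on transplanted animal 3. The part of RNA quality in the chain differences was not tested.

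Across the 9 animals Nefl and Nefm followed each other closely. Pearson's r was 0.87 (exact permutation p = 0.000397, adjusted over 6 pairs 0.00238) and Spearman's rho 0.95 (exact permutation p = 0.000353, adjusted 0.00212). Without the 2 arrays farthest from the median r was 0.91, and with group means removed it was 0.88. Nefh did not follow them in that way. Its r was 0.70 with Nefl (exact permutation p = 0.0383, adjusted 0.0575) and 0.78 with Nefm (exact permutation p = 0.0533, adjusted 0.064), and without transplanted animal 2 these were 0.28 and 0.04, so both relations rested on that animal. Without that animal the r of Nefl with Nefm was 0.79. The brightest Prph probe set had an r of 0.73 with Nefm (exact permutation p = 0.0166, adjusted 0.0497; rho 0.75, exact permutation p = 0.0255, adjusted 0.0765). Its r was 0.70 with Nefl (exact permutation p = 0.0361, adjusted 0.0575; rho 0.60) and 0.40 with Nefh (exact permutation p = 0.298). Without the 2 farthest arrays these were 0.52, 0.31 and -0.21, and without transplanted animal 2 alone 0.47, 0.46 and -0.33. With group means removed over all 9 arrays they were 0.75, 0.86 and 0.29. The relations of Prph with Nefm and Nefl were thus weaker without those arrays, and that with Nefh changed sign. The points of each pair share an array and a capture.

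Transplanted animal 2 stood apart for the chains more than for most genes. Its signal over the median of the other 8 animals was 1.81-fold for Nefl, 3.75-fold for Nefm and 3.91-fold for Nefh. The 4 dim Prph probe sets disagreed here too, at 4.88, 0.522, 1.24 and 1.74 times that median from the brightest to the dimmest. Among 11313 tested probe sets, Nefm ranked 8 and Nefh ranked 9 by distance above that median. Other probe sets in the first 15, named after their values were seen, were of Atp1b1 (a sodium pump subunit, 3 probe sets), Atp2b2 (a plasma membrane calcium pump), Syt2 (a synaptic vesicle calcium sensor), Xist (2 probe sets), Tbca, Fos, Meg3, Uroc1 and Gpaa1, and 1 had no gene name. Among these, Xist and Fos were higher still on another animal. The 2 Xist probe sets read 472.1 and 739.6 on transplanted animal 2 and up to 537.5 and 879.5 elsewhere. Fos read 978.8 and up to 2133.9 elsewhere. The array was not bright in general: it was the highest of the 9 for 8.13% of tested probe sets, the smallest share of any array. It also had the highest neuronal and motor neuron marker sums, 2809 and 620. Of the 18 motor neuron markers 5 were highest there, only 1 of them bright enough to test. The mean log2 value of the 5 tested markers was 6.30 against 6.34 on transplanted animal 1. The part of capture content in its values was not tested.

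The genes whose pattern was most like the mean of the 3 chains over 9 arrays, by Pearson's r among 7251 genes, were Syt2 (0.96), Ache (0.95), Dnm1 (0.92), Atp2b2 (0.89) and Susd2 (0.89). Ache encodes acetylcholinesterase and Dnm1 a dynamin of synaptic vesicle recycling. Syt2 read 43.7, 38.8 and 41.6 for wild type, 37.7, 29.3 and 14.8 for SMA and 35.6, 125.2 and 42.4 for the transplanted animals, again highest in animal 2. Without that animal the r was 0.83 for Syt2, 0.80 for Ache and 0.08 for Atp2b2.

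**Figure D4:**
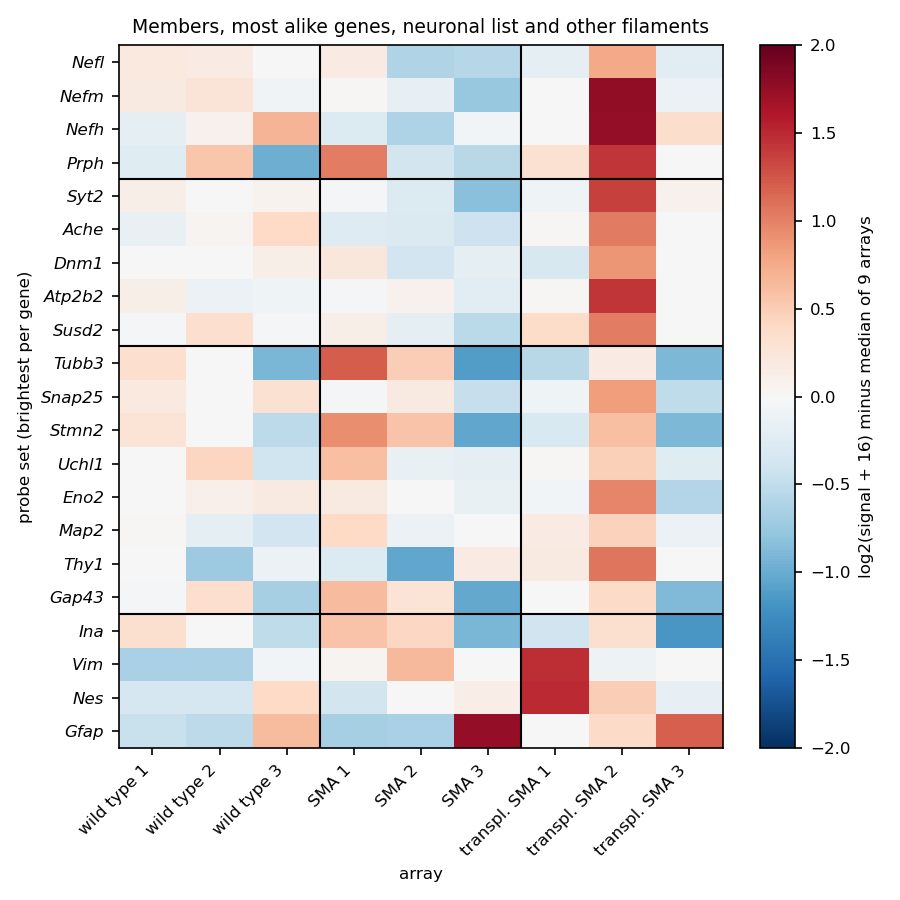
Log2(signal + 16) minus the median of the 9 arrays for the neurofilament and peripherin probe sets, the 5 genes most like the chains, 8 neuronal genes and other intermediate filament genes, by animal. The column of transplanted SMA animal 2 is high for Nefm, Nefh, Syt2 and Ache.

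Other intermediate filament genes and genes of filament linkers gave no called difference. Of 17 such partners 9 were tested: Ina, Vim, Nes, Gfap, the lamins Lmna and Lmnb1, and the linkers Dst, Macf1 and Plec. By limma 0 were called in any comparison. All 9 were on the higher side in SMA against wild type, from 0.00 to 0.68 (median 0.11, 1 with an unadjusted p under 0.05). The median of all tested probe sets was 0.01. Ina, the neuronal filament partner alpha-internexin, differed by 0.09 in SMA against wild type and by -0.44 in transplanted SMA against SMA. Vim, a filament of glia and fibroblasts, differed by 0.91 in transplanted SMA against wild type (SE 0.38, limma adjusted p = 0.739), with its highest signal, 2060.5, on transplanted animal 1.

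Genes that act on neurofilaments gave 0 calls by limma in any comparison. Among kinases and phosphatases that set tail phosphorylation, 20 of 25 were tested and the medians were -0.02 in SMA against wild type and -0.05 in transplanted SMA against SMA. Mapk10, a Jun kinase, differed by -0.86 in SMA (SE 0.43, limma adjusted p = 0.846). Among proteins that bind neurofilament mRNA, 16 of 19 were tested, with medians of -0.04 and 0.02. Among motors of axonal transport, 19 of 20 were tested, with medians of 0.03 and 0.04. In transplanted SMA against SMA, the estimates of the motors ran from -0.60 to 0.67. Of these motors, 1 lower and 0 higher had an unadjusted limma p under 0.05, against 4.77% of all tested probe sets. The highest estimate was that of Kif5b, a kinesin heavy chain (0.67, SE 0.35, limma adjusted p = 0.933).

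Tubulin, tau and other parts of the axon cytoskeleton lay on both sides, with 25 of 29 tested. In transplanted SMA against SMA, 8 were higher and 17 lower with a median of -0.10, and 1, Mapt, had an unadjusted p under 0.05. Mapt, which encodes tau, read 340.4, 291.0 and 284.2 for SMA against 192.6, 214.6 and 156.7 after transplantation, without overlap. The difference was -0.66 (SE 0.17, limma adjusted p = 0.933). In this comparison 4.68% of all tested probe sets were lower without overlap. Degradation genes, 9 of 13 tested, had medians of 0.07 in SMA against wild type and 0.00 in transplanted SMA against SMA. In the latter, 1 of them, Ctsb, had an unadjusted limma p under 0.05 and was lower (-0.45, SE 0.19, limma adjusted p = 0.933).

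Motor neuron markers also gave 0 calls. In transplanted SMA against SMA, 4 of the 5 tested were higher, with a median of 0.33. Isl2, a motor neuron transcription factor, differed by 0.72 (SE 0.27) and Ache by 0.67 (SE 0.27), each with an unadjusted p under 0.05 and a limma adjusted p of 0.933. Without transplanted animal 2, Isl2 differed by 0.73 and Ache by 0.33, and 1 marker rather than 2 had an unadjusted p under 0.05. The 8 tested neuronal genes had a median of 0.04 in the same comparison, and of -0.26 with 7 of 8 lower without that animal.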

How the data were processed

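MAS5 signals, intensity values scaled by the authors to a common trimmed mean (100 on all 9 arrays after leaving out 2% at each end), were used as deposited. MAS5 is named per the submitters' processing notes, with no version. Groups came from the labels. After 64 controls were left out, log2(signal + 16) was fitted for the brighter 50% of probe sets (11313) with limma 3.58.1 in R 4.3.3, using 1 mean per group, eBayes with trend, and Benjamini-Hochberg adjustment over all of them. Of 22626 probe sets, 20380 have 1 gene symbol, 691 several and 1555 are not listed in the annotation. Within-array differences were tested by two-sided exact permutation, as were correlations. The code was tested on simulated data.

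The members and gene lists were chosen with earlier results of these data known. Genes named were all probe sets of Nefl, Nefm, Nefh and Prph, from each list up to 3 tested members with the smallest unadjusted p in a comparison, and the genes most like the chains. Alternatives were other pseudocounts, filters, normalizations, variance models, probe set rules, a neuronal covariate, a replicate block and leaving arrays out. Deviations of same-numbered animals from their group means correlated at -0.08 to 0.45. Of the 9 animals, 4 correlated best with their own number in both other groups. These values do not settle whether the numbers pair animals, and number entered only as the replicate block. The number of arrays limits the precision.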

Additional observations from a re-analysis of the deposited data

How the results depend on the processing

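No chain was called in any comparison under any of 25 alternatives. In SMA against wild type, estimates stayed below 0 throughout, from -0.71 to -0.30 for Nefl, -0.87 to -0.19 for Nefm and -0.70 to -0.25 for Nefh, the last over 24 settings because the brighter 25% of probe sets leaves Nefh out. Nefl there had an unadjusted limma p of 0.0467 with array weights, 0.0146 with the neuronal covariate and 0.0279 without SMA animal 1. Under 0.05 in these settings were 1123, 794 and 732 of 11313 probe sets, and the limma adjusted p of Nefl was 0.497, 0.571 and 0.75. With the replicate block, 0 chains were called. In transplanted SMA against SMA the unadjusted limma p was then 0.0318 for Nefm and 0.0253 for Nefh, with 780 of 11313 probe sets under 0.05. All 3 chains were under 0.05 with array weights and with the neuronal covariate, as were 857 and 748 of all tested probe sets. The limma adjusted p of the chains was 0.648 and 0.741 in these settings. Without transplanted animal 2, 0 chains had an unadjusted p under 0.05. Leaving out 1 array in turn gave -0.17 to 0.77 for Nefm and -0.02 to 0.87 for Nefh in transplanted SMA against wild type. Without the 3 arrays numbered 2, chosen after seeing the data, these were -0.11 and -0.07.

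Differences between chains were unstable. Leaving out 1 array gave, in SMA against wild type, -0.16 to 0.15 for Nefm minus Nefl, -0.29 to 0.26 for Nefh minus Nefl and -0.44 to 0.26 for Nefh minus Nefm. Nefh minus Nefm ran from -0.05 to 0.52 in transplanted SMA against SMA and from -0.14 to 0.42 against wild type, and Nefl relative to neuronal genes from -0.18 to 0.02 in the last comparison. Nefh minus Nefl was 0.08 in SMA against wild type with a pseudocount of 64. The correlation of Prph with Nefl, which missed the threshold, was 0.74 (exact permutation, adjusted p = 0.0413) with a pseudocount of 64. That of Prph with Nefm, which passed it at an adjusted exact permutation p of 0.0497, was 0.72 (adjusted exact permutation p = 0.055) after median centring and 0.61 (0.131) with a pseudocount of 1. The cause was not tested. 3 animals a group and dim signals, for Prph above all, limit what these arrays can show.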

Other observations

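The 3 genes most like Nefm, and the first for Nefh, were also among the 5 most like the mean of the chains, while those for Nefl were not. For Nefl they were Mlst8 (r = 0.92), Entpd6 (0.91) and Txnrd1 (0.91), for Nefm Syt2 (0.97), Atp2b2 (0.94) and Susd2 (0.93), and for Nefh Ache (0.95), Ncdn (0.93) and Nrsn1 (0.90), each over 9 arrays. Over the 8 arrays without transplanted animal 2, a ranking added after seeing the data, the genes most like the mean of the chains were Txnrd1 (0.97), Tpst1 (0.96), Rogdi (0.93), Cyc1 (0.93) and Vps45 (0.92). All are descriptions across arrays that share capture and neuronal content.

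Microglial markers, 6 tested, were all on the lower side in transplanted SMA against SMA (median -0.81, 0 called by limma, 3 with an unadjusted p under 0.05), and the 5 tested oligodendrocyte markers were all on the higher side (median 0.45, 0 called, 0 with an unadjusted p under 0.05). Their part in the chains' values was not tested.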
